A study of Homo sapiens with 4 samples.

Results

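The clustered protocadherin genes lie on the long arm of chromosome 5. H3K4me3 peaks over them were taken from 2 peak lists, 1 from ARID1A knockout MDA-MB-231 cells and 1 from control MDA-MB-231 cells. Every peak that overlapped chromosome 5 from 140160000 to 140895000 (hg19) was a member, which gave 5 of the 23588 knockout peaks and 22 of the 36677 control peaks. The members were sorted into the alpha cluster (to 140395000), the beta cluster (140420000 to 140640000) and the gamma cluster (140700000 to 140895000). No member lay wholly in the intervals between these limits.

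MDA-MB-231 is an established triple-negative breast cancer line. ARID1A is a DNA-binding part of SWI/SNF, a complex that moves nucleosomes with the energy of ATP. H3K4me3, the trimethylated lysine 4 of histone H3, marks promoters that are active or poised. The genotypes were ARID1A knockout and control, with 1 H3K4me3 immunoprecipitate (IP) and 1 input library each. The labels give neither the way the gene was disrupted nor whether the knockout cells were 1 clone, and no treatment or time. On 3 of the 4 libraries the cell line label differs in its final digit from the line named by the series, and the header of the knockout list calls its library K6. With 1 IP per genotype there was no replicate check of any difference, and intervals below cover counting error only, at 95%.

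Clustered protocadherins are cadherin-type adhesion proteins of the cell surface. In neurons each cell uses a different selection of them, and like binds like, which lets branches of the same neuron recognise and avoid each other. In the alpha and gamma clusters each variable exon has its own promoter and is spliced to constant exons shared by the cluster, whereas each beta gene is a single exon without shared constant exons. Choice among the promoters involves CTCF, cohesin and distant enhancers, and the last genes of the alpha and gamma clusters, called C-type, are mostly expressed without the choice between cells that the others show. In several cancers, breast cancer among them, long stretches of these clusters are known to carry DNA methylation.

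The promoters were looked at first, since H3K4me3 gathers there. The RefSeq table of genes names 15 alpha, 16 beta and 22 gamma genes, and its promoter table (GRCh38.p14) held a window for 47 of these 53. Each window runs from 250 bases before to 50 bases after the first listed start of the gene, and all 47 are on the plus strand. The letters CGCT, the core of a promoter element shared by most clustered protocadherins, were searched on both strands. On the plus strand they were in 46 of the 47 windows (97.9%), against 54.1% of the windows of all 27305 genes on the strand of their own gene. On either strand the shares were 97.9% and 69.4%. Between 100 and 31 bases before the start, a stretch chosen after the positions were seen, 43 of the 47 protocadherin windows (91.5%) had CGCT on the gene's strand, against 21.4% of all windows. The PCDHA9 window had CGCT on neither strand, which says only that these letters are not in this window. A match describes the letters and is no evidence of use of the promoter.

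The 120 bases before the start are shown for 6 genes, so that the shared letters and the CG-rich C-type promoters can be compared. They are PCDHA1 (chr5:140786020-140786139), the first alpha gene, PCDHAC1 (chr5:140926179-140926298), an alpha C-type gene, PCDHB2 (chr5:141094495-141094614), a beta gene, PCDHGA1 (chr5:141330394-141330513), the first gamma gene, PCDHGB2 (chr5:141360016-141360135), a gamma gene with no CGCT in this stretch, and PCDHGC3 (chr5:141475846-141475965), a gamma C-type gene. Positions are in GRCh38.p14, plus strand, and cannot be set against the hg19 positions of the peaks. The sequences are RefSeq's, 5′ to 3′, and capitals mark each CGCT.
PCDHA1: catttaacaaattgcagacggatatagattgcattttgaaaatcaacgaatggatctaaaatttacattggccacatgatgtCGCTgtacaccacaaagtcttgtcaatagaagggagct
PCDHAC1: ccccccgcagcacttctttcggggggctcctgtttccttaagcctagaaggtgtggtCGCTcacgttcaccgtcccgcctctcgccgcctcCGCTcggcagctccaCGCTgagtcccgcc
PCDHB2: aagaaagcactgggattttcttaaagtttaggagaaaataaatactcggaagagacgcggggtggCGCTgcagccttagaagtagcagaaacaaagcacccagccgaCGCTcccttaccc
PCDHGA1: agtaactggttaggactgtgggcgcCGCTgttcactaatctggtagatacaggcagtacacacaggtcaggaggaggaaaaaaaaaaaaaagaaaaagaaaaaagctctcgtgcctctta
PCDHGB2: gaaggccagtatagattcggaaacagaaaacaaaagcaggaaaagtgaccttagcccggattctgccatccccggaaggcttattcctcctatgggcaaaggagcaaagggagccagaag
PCDHGC3: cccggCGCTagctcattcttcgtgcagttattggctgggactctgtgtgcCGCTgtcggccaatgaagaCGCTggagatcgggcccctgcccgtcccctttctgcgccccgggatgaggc

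The windows of the C-type genes were richer in CG dinucleotides, the sites of DNA methylation in mammals. The 4 C-type windows held 15 to 27 CG dinucleotides with a median of 20.5. The 43 other protocadherin windows held 2 to 16 with a median of 7, and the windows of all genes had a median of 14. Without the C-type genes, the medians were 7 for alpha (3 to 9), 7.5 for beta (5 to 12) and 6.5 for gamma (2 to 16), so the medians were close and the gamma windows had the widest range. G and C made up a median of 61.8% of the bases of the C-type windows, 38.7% of the other protocadherin windows and 58.3% of all windows.

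**Figure D1:**
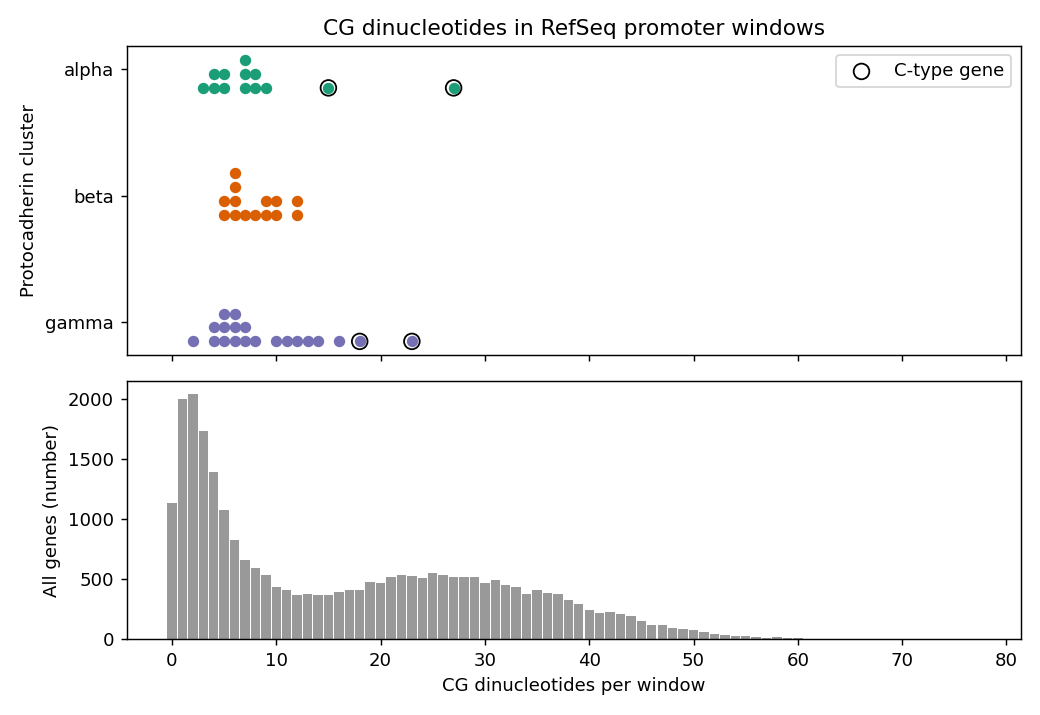
Number of CG dinucleotides per RefSeq promoter window of 300 bases. The upper panel has 1 point per protocadherin gene, stacked where values are equal, with circles around the 4 C-type genes, which sit at 15 to 27, and the lower panel counts all 27305 genes.

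No hg19 annotation was used here, so peaks are given by position and none is assigned to a gene. The RefSeq order of protein-coding genes has SLC25A2, a mitochondrial carrier, and TAF7, a subunit of the general transcription factor TFIID, between the last beta gene and PCDHGA1. Peaks near the start of the gamma interval may therefore belong to a gene that is not a protocadherin, which was not tested.

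The knockout IP held 13391724 tags (aligned reads), of which 99.4% lay in called peaks, and the control IP held 27748061 tags, of which 62.1% lay in called peaks. Outside its peaks the knockout IP had 84001 tags for the whole genome. The peak lists differ in kind as well, with a median width of 300 bp in the knockout list and 2968 bp in the control list. These properties of the whole lists bear on every comparison of the genotypes below, and their part in the results was not tested.

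The knockout list had 0.68 peaks per 100 kb in the region, near its level on the rest of chromosome 5, and too few peaks to rank the clusters. It held 1 peak in the alpha cluster, 2 in the beta cluster and 2 in the gamma cluster, which is 0.426, 0.909 and 1.03 peaks per 100 kb. The rest of chromosome 5 had 0.749 knockout peaks per 100 kb, and the effective genome of 2.7e+09 bp set in the peak caller had 0.874. All 5 knockout peaks were exactly 300 bp wide, the fragment length set in the peak caller, as were 55% of all knockout peaks. Together they covered 1500 bp, against 50293 bp for the 22 control peaks. The number of knockout peaks per control peak was 0.227 in the region, 0.7 on the rest of chromosome 5 and 0.643 over the whole lists, with 1 library per genotype and 5 knockout peaks behind the first value.

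In the control list the beta cluster carried most of the marked sites. It held 13 of the 22 control peaks, against 7 in the gamma cluster and 2 in the alpha cluster. Per 100 kb this was 5.91 control peaks in beta, 3.59 in gamma and 0.851 in alpha. On the rest of chromosome 5 the control list had 1.07 peaks per 100 kb, and over the effective genome 1.36. Control peaks covered 13.7% of the beta interval, 8.59% of gamma and 1.43% of alpha, compared with 5.16% over the effective genome. The alpha cluster, the longest of the 3 intervals, had a value below that of the rest of chromosome 5, but 2 peaks are too few to call it lower. The other clusters were above the density of the rest of chromosome 5. At a false discovery rate (FDR) of 1% or less, as given by the peak caller, 7 beta, 5 gamma and 1 alpha peak remained, in the same order.

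**Figure D2:**
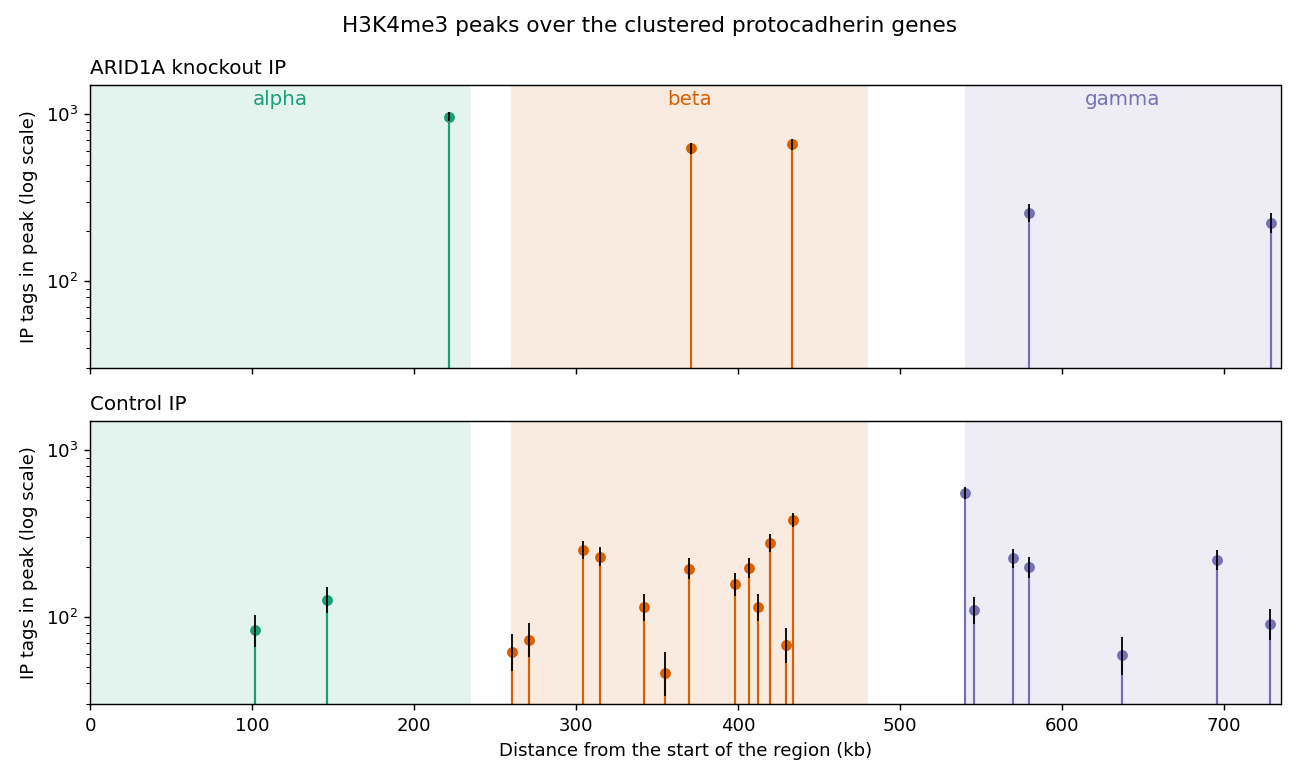
IP tags per peak (log scale) against the distance of the peak summit from the start of the region in kb, for the ARID1A knockout IP (upper panel) and the control IP (lower panel). Each stem is 1 peak, black bars are exact Poisson 95% intervals, and shading marks the 3 clusters. The 13 control beta peaks stand close together. The tallest knockout peak, with 966 tags, stands in the alpha cluster at a place without a control peak. The 2 alpha peaks of the control list lie elsewhere in the cluster.

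The alpha cluster held a larger share of the tags in the knockout than in the control under both scalings tried, and the beta cluster changed direction with the scaling. Per 1000000 tags in all peaks of the same list, alpha held 72.6 in the knockout (Poisson interval 68.1 to 77.3) and 12.2 in the control (10.6 to 13.9). Beta held 96.6 in the knockout (91.4 to 102) and 126 in the control (121 to 131). Gamma held 36.1 in the knockout (32.9 to 39.4) and 84.6 in the control (80.3 to 89.0). Per 1000000 tags of the whole library, the values were 72.1 in the knockout and 7.57 in the control for alpha. For beta they were 96.0 in the knockout and 78.2 in the control, and for gamma 35.8 in the knockout and 52.5 in the control.

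The alpha value of the knockout came from a single peak. The gamma value of the control included 1 peak of 554 tags at the edge of the interval. Without that peak gamma held 52.4 (49.1 to 56.0) per 1000000 peak tags in the control, and 32.6 per 1000000 library tags, which is below the 35.8 of the knockout. Over the whole region the knockout was at 205 and the control at 223 per 1000000 peak tags, and the knockout at 204 and the control at 138 per 1000000 library tags. The direction for the region and for beta thus depended on the scaling. The knockout peaks of 966, 660 and 626 tags are each 300 bp wide, so they hold more tags than start positions on both strands together. Some of their tags therefore share a position and strand. Whether these are copies of the same fragment was not tested. All 5 knockout peaks of the region, also those of 256 and 224 tags, are 300 bp wide with the summit at 49.83% of the width. Whether tags of the gamma peaks share positions was not tested either. Duplicated fragments would make these intervals too narrow.

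The alpha cluster held the strongest knockout peak of the region, at a place with no control peak. It ran from 140381455 to 140381754 and held 966 tags (906 to 1029), more than 83.1% of the knockout peaks. Its summit lay at 49.83% of its 300 bp. The peak held more tags than these 300 bp have start positions on both strands, so some tags share a position. Its count therefore does not show a gained H3K4me3 site. The nearest control peaks were 74343 bp before and 37657 bp after it. The 221.455 kb of the region before it held no knockout peak.

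The control peaks of the alpha cluster lay elsewhere and were weak. No control peak lay in the first 101.181 kb of the cluster. The first control peak ran from 140261181 to 140262827 and had 83 tags (Poisson interval 66.1 to 103) over 1647 bp. The second ran from 140305388 to 140307112 and had 127 tags (106 to 151) over 1725 bp. Both were narrower than the control median and had fewer tags than the median control peak, at 168 tags. The control list then had no peak for 112.298 kb, the longest such stretch in the region, and the knockout peak lay inside it. Neither control alpha peak met a knockout peak, and the exact Clopper-Pearson interval for 0 of 2 reaches 84.2%.

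In the beta cluster both knockout peaks lay within control peaks. The first, from 140530677 to 140530976, held 626 tags (578 to 677) and lay in a control peak of 195 tags. The second, from 140593425 to 140593724, held 660 tags (611 to 712) and lay in the strongest beta peak of the control, with 382 tags. Their summits were 915 bp after and 197 bp before the summit of the control peak. All 5 knockout summits of the region lay at 49.83% of the peak's width, so these distances run from the middle of a 300 bp peak. The other 11 beta peaks of the control met no knockout peak, among them those with 278, 253 and 230 tags.

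The control peaks of the beta cluster followed each other at a median summit distance of 10664 bp (range 3947 to 33329 bp, 12 distances). The median over the whole control list was 29812 bp. The RefSeq table names 16 beta genes, against these 13 control peaks. Which genes carry a peak was not analysed here.

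The beta peaks ranged from 46 to 382 tags, with a median of 158 and quartiles of 73 and 230. The first, from 140419411 to 140421159, held 62 tags and began before the beta limit, though its summit lay within the cluster. The second, from 140430211 to 140432018, held 73 tags. The third, from 140463700 to 140466098, and the fourth, from 140473275 to 140475861, were stronger, at 253 and 230 tags. The opening of the cluster was therefore weakly marked in the control cells, and the next peaks were above the list's median of 168 tags.

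In the middle of the cluster the marking was weaker again. A peak from 140500882 to 140503885 held 114 tags over 3004 bp. The next, from 140514347 to 140515886, held 46 tags over 1540 bp, the fewest of any member, and its FDR was 15.23%. A stronger one, from 140529206 to 140531247, followed with 195 tags.

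The last 6 beta peaks stood within 38.878 kb, from 140556912 to 140595789, and held 1198 tags together. This stretch was picked after its values were seen. Its first 3 peaks, from 140556912 to 140558948, from 140566358 to 140569052 and from 140571290 to 140573231, held 158, 197 and 115 tags. The fourth, from 140579012 to 140581670, had 278 tags, and the fifth, from 140588173 to 140590586, had 68. The strongest beta peak closed the run, with 382 tags (345 to 422) in the 3300 bp between 140592490 and 140595789. From there to the start of the first gamma peak the control list held nothing for 101.879 kb, a stretch that includes the end of the beta interval.

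The gamma cluster held the weakest knockout peaks of the region. The first, from 140739813 to 140740112, held 256 tags (226 to 289) and lay in a control peak of 199 tags. The second, from 140889115 to 140889414, held 224 tags (196 to 255) and lay in the last control peak of the region, with 91 tags. Both were below the knockout median of 419 tags, whereas the alpha and beta peaks of the knockout were above it. Their summits, again the middle of the peak, lay 109 and 703 bp after those of the control peaks.

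The strongest control peak of the region stood at the edge of the gamma cluster. It held 554 tags (509 to 602) in the 4019 bp between 140697669 and 140701687, and its summit at 140700222 lay just inside the gamma limit. It was the only member of at least 4 kb, a width reached by 35.1% of control peaks. No knockout peak met it, and the nearest was 38126 bp away. Whether this peak belongs to a protocadherin or to another gene was not tested. Without it, the gamma cluster of the control held 6 peaks.

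Those 6 ran from 59 to 225 tags. The first 3 of them, from 140705204 to 140707028, from 140729177 to 140731469 and from 140739247 to 140741732, held 110, 225 and 199 tags. Farther along, the peaks were sparse, with empty stretches of 55.358 and 56.228 kb on either side of a peak from 140797091 to 140798162. That peak was the narrowest member at 1072 bp and held 59 tags. Toward the end of the cluster, where RefSeq places the C-type genes in its order, a peak from 140854391 to 140857413 had 220 tags and the last, from 140887498 to 140889524, had 91.

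Most members were narrower than the median control peak, and in tags per kb they were spread around the middle of the list. Of the 22, 18 were narrower than the control median of 2968 bp, and their own median was 2167.5 bp. Tags were near the middle of the list, with a median of 142.5 for the members and 168 for the list, and none of the members reached the ceiling of the caller's score. Tags per kb of peak were a median of 72.9 for the members and 56.5 for the list, and 14 of the 22 members were above the list's value. From 2.97 to 74.9% of the control list had a lower density than a given member, so no member was among the densest 25% of peaks. An FDR of 1% or less was found for 13 of the 22 members and for 54.6% of all control peaks.

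**Figure D3:**
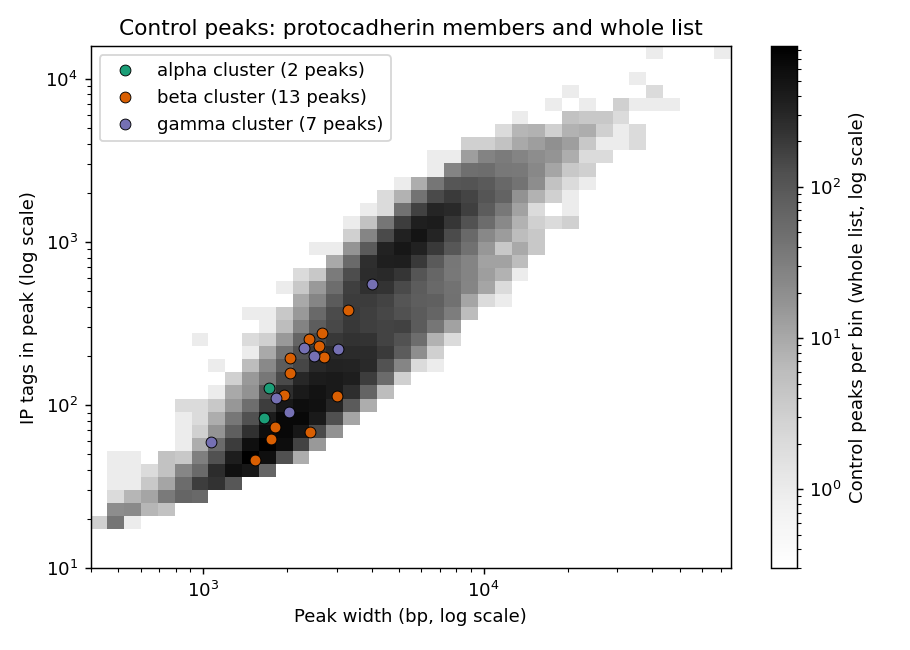
IP tags per control peak against peak width, both on log scales, with members coloured by cluster and the whole control list as grey bins. The 22 members lie between 1072 and 4019 bp and between 46 and 554 tags, apart from the wide domains at the upper right.

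The summit lay before the middle of the peak in 16 of the 22 control members, against 47.1% of all control peaks. The median summit lay at 43.0% of the peak's width from its lower coordinate for the members and at 51.0% for the list. The protocadherin genes in the RefSeq promoter table are all on the plus strand, while 13452 of the 27305 genes of the table are on the minus strand. The longer part of most member peaks was thus on the side of higher coordinates, toward which genes of the plus strand are transcribed. No peak was assigned to a gene, so a link between summit position and gene direction is not shown. The count of summits is a description, and no test was made of it.

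Most knockout members met a control peak, and few control members met a knockout peak. Of the 5 knockout members, 4 overlapped a control peak by 1 bp or more (80.0%, exact Clopper-Pearson interval 28.4 to 99.5%), compared with 60.3% of all knockout peaks. Of the 22 control members, 4 met a knockout peak (18.2%, 5.19 to 40.3%), compared with 28.4% of all control peaks. Among control peaks of 46 to 554 tags, the range of the members, 12.7% met one. Each list's share lies within the interval of its members, so no difference was detectable at this number of peaks. The 4 control members that were met had 91, 195, 199 and 382 tags, and the 18 that were not had a median of 121 tags (range 46 to 554).

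Each of the 4 shared sites held more tags in the knockout peak than in the wider control peak. The tag counts were 626 in the knockout and 195 in the control at the first beta site, and 660 in the knockout and 382 in the control at the second. They were 256 in the knockout and 199 in the control at the first gamma site, and 224 in the knockout and 91 in the control at the second. Knockout over control tags, as a log2 ratio with a pseudocount of 1 and centred on the median of all 7552 matched pairs, came to 2.13 (1.90 to 2.38) and 1.24 (1.06 to 1.43) at the beta sites. At the gamma sites it was 0.82 (0.55 to 1.09) and 1.75 (1.398 to 2.12). Some of the 626 and 660 knockout tags share a position and strand. Duplicated fragments would make these intervals too narrow as well. A centred ratio at least 2-fold higher in the knockout was found at 3 of these 4 sites and at 28.7% of all pairs, and one at least 2-fold lower at 0 of the 4 and at 28.9% of all pairs. Per kb of peak width, centred, 2 of the 4 were at least 2-fold higher (24.1% of all pairs), and with tags divided by the library totals, uncentred, 4 of the 4 (40.9%). The shares of all pairs cover control peaks of every tag count, whereas the 4 sites had 91 to 382 control tags. At such control counts most pairs lay above the median ratio of all pairs. No share was taken at like tag counts, so 3 of 4 is not shown to be high for such peaks.

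These ratios were well inside the spread of the whole set of pairs. Their percentiles among the 7552 pairs were 88.0, 76.1, 68.0 and 83.5, and the centred ratios of all pairs had an SD of 1.96. The knockout peak covered 9.09 to 14.8% of the width of its control peak. Tags per kb of peak were therefore far apart, at 2087, 2200, 853 and 747 in the knockout and 95.5, 115.8, 80.05 and 44.9 in the control. That is 10.7 to 21.9 times higher in the knockout, compared with a median of 8.38 times over all pairs. The difference in peak shape between the lists is part of these values, and a change in the number of modified nucleosomes cannot be read from them.

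**Figure D4:**
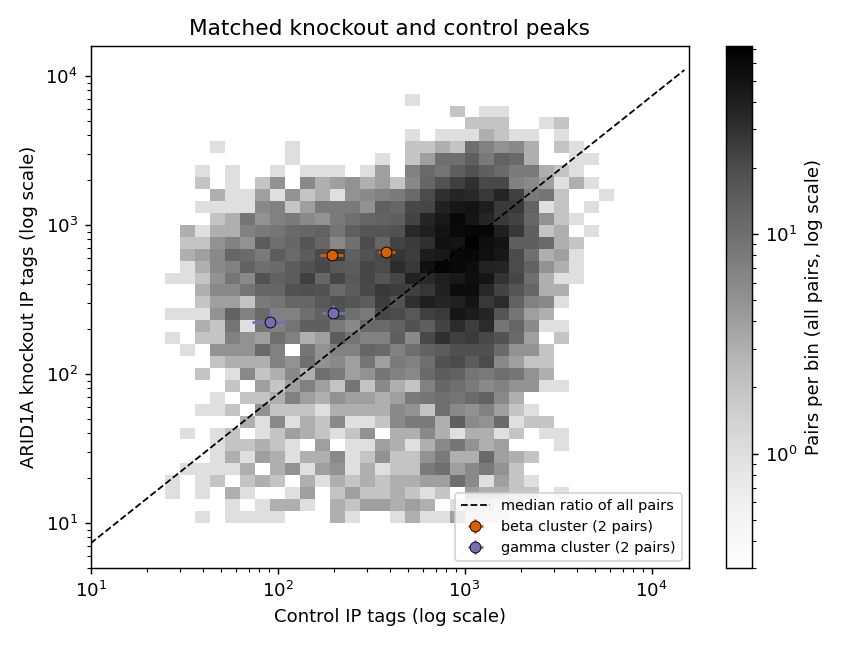
ARID1A knockout IP tags against control IP tags for matched peaks, both on log scales, with grey bins for all 7552 pairs. Points are the 4 protocadherin pairs with exact Poisson 95% intervals. They lie above the dashed line of the median ratio of all pairs, as do most pairs at similar control tag counts.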

How the data were processed

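H3K4me3 IP and input DNA of MDA-MB-231 cells, ARID1A knockout or control, was sequenced after micrococcal nuclease digestion, per the labels' protocols, and libraries were grouped by title. The antibody label of both inputs reads IgG. Tool names given in the submitters' processing notes are MACS 1.4.3 and Bowtie2 2.2.4, with the hg19 build. Per the file headers, each IP was called against its own input at a p cutoff of 0.0001 with a fragment length of 300 bp, and the larger library was scaled to the smaller.

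Per the file headers, each peak has a count of IP tags, not normalized. A score made by MACS from the negative log10 of p, multiplied by 10 and limited to 3100, was deposited without its column name and was identified by its place. The fold enrichment over input and the FDR in percent are the authors' values and, like the score, were used only within a list. Positions are in bp, 1-based.

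Overlap meant at least 1 shared bp, checked with bedtools 2.31.1. Ratios used pairs with a single partner in each direction. Intervals are exact: Poisson for tags, Clopper-Pearson for shares, binomial for ratios. The software was Python 3.11.15 with scipy 1.17.1, pandas 2.3.3, numpy 2.4.6 and matplotlib 3.10.9. The ratio step was run on simulated Poisson counts, without the width difference of the lists or duplicated tags. That run checks the calculation only, not whether the intervals hold for these data. Every peak of a cluster with up to 15 peaks in a list is named. Alternatives were stricter thresholds, other overlap rules, merging and other scalings. Members and lists were chosen with earlier results of these data known. No test of the genotype was made, with 1 IP each.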

Additional observations from a re-analysis of the deposited data

How the results depend on the processing

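Of 225 values recomputed under 14 alternatives, 186 kept within limits, 36 moved and 3 changed sign. Limits were 1.5 times for counts, lengths and widths, and the counting interval for tags, shares and ratios. A fold enrichment of 10 or more, merging within 1 kb and sorting by summit left every member as it was. Leaving out knockout peaks of 300 bp cannot change control values. The 186 therefore include values that could not move, and are no measure of stability. All 3 sign changes were among the shares of tags of the region and its clusters. Those shares and their 2 alternatives were added after seeing the data. The log2 of the knockout over the control share of peak tags was -0.12 for the region, 2.57 for alpha, -0.38 for beta and -1.23 for gamma. By library totals it was 0.56 for the region, 3.25 for alpha, 0.30 for beta and -0.55 for gamma. Without the strongest control peak it was 0.11 for the region and -0.54 for gamma. With an FDR of 1% or less the control list kept 13 peaks over 33090 bp with 3128 tags in the region: 1 alpha peak over 1725 bp with 127 tags, 7 beta peaks over 17719 bp with 1693 tags, and gamma peaks with 1308 tags. With a MACS p of 1e-10 or less the control peaks held 3663 tags in the region and 1995 in beta. When knockout peaks of 300 bp were left out, the knockout list held 0 peaks, 0 bp and 0 tags in the region and in each cluster, and 0% of control members met one, since all 5 are 300 bp wide. With an overlap of 50% of the peak, 0% of control members met a knockout peak, since a 300 bp peak cannot cover so much of them. Divided by the library totals and uncentred, the log2 ratios were 2.73 and 1.84 at the beta sites and 1.41 and 2.34 at the gamma sites. Per kb of width they were 1.38 at the first beta site and 0.35 and 0.98 at the gamma sites.

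No paired analysis was possible because each genotype has 1 IP library. With 84001 knockout tags outside called peaks in the whole genome, and no tag counts for places without a peak, a control peak with no knockout peak is not shown to lack the mark.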
